A study of Mus musculus with 3 samples.

Results

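The regions described here were ranked high in both ATAC-seq libraries made at day 7 after injury and had no peak summit nearby in the library made before injury. They were chosen from the deposited summit lists of mouse chromosomes 1 to 19. The 30000 summits with the highest score were kept from the day 7 immobilized list and from the day 7 non-immobilized list, widened by 250 bp on each side and merged, which gave 35756 regions. Of these, 23702 held a kept summit of both day 7 lists. A region was called gained if no summit of the whole day 0 list lay within 500 bp of its kept summits, and 1325 regions met that rule. They made up 5.59% of the 23702 strong shared regions (exact 95% interval 5.30 to 5.89). The other 22377 strong shared regions, called kept regions below, had a day 0 summit within 500 bp. Scores of all 3 lists chose the gained regions, so their presence at day 7 and absence at day 0 is the definition and not a result.

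The study looked at chromatin accessibility in heterotopic ossification, in which bone forms in soft tissue after injury. The groups were mouse mesenchymal stem cells labelled immobilized at day 7 after injury, the same cell type labelled non-immobilized at day 7 after injury, and the same cell type before injury at day 0. Each group had 1 library, so differences could not be set against a replicate spread and carry no p-value. Strain, age, type of injury, the means of immobilization, how the cells were isolated and any pooling of animals were not given in the sources used here.

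ATAC-seq finds open chromatin because a transposase cuts and tags DNA where nucleosomes are absent or loose. Promoters of widely used genes are open in nearly every cell type, whereas distal enhancers are bound by transcription factors in some cell types or states and are closed in others. Tissue injury exposes mesenchymal progenitors to inflammatory, growth factor and mechanical signals, whose transcription factors act largely at enhancers.

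Sequence was at hand for promoters only, which cover a small part of the 1325 gained regions and do not stand for the rest. RefSeq promoter windows, from 250 bases before to 50 bases after the gene start, were at hand for 16457 protein-coding genes, and those of 60 genes held a summit of 56 gained regions. The 250 bases upstream of 6 of these genes are printed 5′ to 3′ on the gene's strand, from RefSeq on assembly GRCm38.p6, the assembly of mm10. Tie1 (chr4:118489850-118490099, minus strand), Kit (chr5:75574737-75574986, plus strand) and Ctla2b (chr13:60897448-60897697, minus strand) lay far from every day 0 summit. Neurl3 (chr1:36273426-36273675, minus strand) and Cxcl2 (chr5:90903649-90903898, plus strand) were the 2 with the NF-kB letters, and Ing3 (chr6:21949321-21949570, plus strand) was the best ranked gained region of all. Capitals mark matches, on either strand, to AP-1 (TGANTCA), ETS (CCGGAAG), KLF/SP (GGGCGG), RUNX (TGTGGT), TEAD (GGAATG), NF-kB or the motif of GATA factors (AGATAA). The run of Tie1 held none of them.
Tie1: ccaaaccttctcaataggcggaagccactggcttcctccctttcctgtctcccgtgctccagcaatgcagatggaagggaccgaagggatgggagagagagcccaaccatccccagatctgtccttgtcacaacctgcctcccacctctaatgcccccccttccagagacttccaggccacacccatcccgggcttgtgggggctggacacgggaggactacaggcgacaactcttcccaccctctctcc
Kit: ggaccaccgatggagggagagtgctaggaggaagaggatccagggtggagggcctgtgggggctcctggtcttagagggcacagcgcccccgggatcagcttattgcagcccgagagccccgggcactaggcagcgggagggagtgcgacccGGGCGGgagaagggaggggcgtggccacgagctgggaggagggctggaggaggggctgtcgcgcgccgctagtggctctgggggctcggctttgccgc
Ctla2b: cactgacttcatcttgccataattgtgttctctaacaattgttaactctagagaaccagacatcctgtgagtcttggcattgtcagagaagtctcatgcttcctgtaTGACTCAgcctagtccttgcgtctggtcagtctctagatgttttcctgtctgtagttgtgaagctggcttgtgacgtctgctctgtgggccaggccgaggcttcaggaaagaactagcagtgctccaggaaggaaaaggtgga
Neurl3: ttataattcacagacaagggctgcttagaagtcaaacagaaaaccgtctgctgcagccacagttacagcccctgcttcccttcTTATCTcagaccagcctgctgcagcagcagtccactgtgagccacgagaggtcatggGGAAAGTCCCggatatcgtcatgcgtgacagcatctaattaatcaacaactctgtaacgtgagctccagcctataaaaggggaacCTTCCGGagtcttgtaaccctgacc
Cxcl2: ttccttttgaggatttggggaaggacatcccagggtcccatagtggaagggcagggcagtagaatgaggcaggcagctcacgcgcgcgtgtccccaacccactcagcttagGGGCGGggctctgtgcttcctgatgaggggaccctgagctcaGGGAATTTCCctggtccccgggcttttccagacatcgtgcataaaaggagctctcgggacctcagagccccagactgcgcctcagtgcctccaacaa
Ing3: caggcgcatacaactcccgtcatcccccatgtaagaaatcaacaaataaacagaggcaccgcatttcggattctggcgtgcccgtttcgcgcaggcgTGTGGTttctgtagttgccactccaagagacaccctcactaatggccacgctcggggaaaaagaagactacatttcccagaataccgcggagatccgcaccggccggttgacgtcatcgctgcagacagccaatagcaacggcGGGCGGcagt

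Tie1, an endothelial receptor tyrosine kinase, had summits at 23 (immobilized) and -76 (non-immobilized) from its start, and the nearest day 0 summit lay 24039 bp away. Kit, the receptor of stem cell factor, had summits at -35 and -44, ranked 29028 in the immobilized and 16728 in the non-immobilized list, and the nearest day 0 summit lay 260792 bp away. Ctla2b, of a family of cysteine protease inhibitors, had summits at -40 and -42, ranked 17852 and 8161 in the same order of libraries, 153155 bp from the nearest day 0 summit. Each of these 3 start sites ranked better in the non-immobilized list, but others far from day 0 summits did not. Tfcp2l1, a transcription factor gene, ranked 14691 in the immobilized and 22650 in the non-immobilized list at 129375 bp, and Zc3h12c, a regulator of mRNA decay in inflammation, 17910 and 24682 at 19207 bp. Neurl3, an E3 ubiquitin ligase, had summits at -82 and -91, ranked 16954 and 15736, and Cxcl2, a chemokine that attracts neutrophils, had summits at -117 and -172, ranked 25394 and 24153. Their nearest day 0 summits lay 5870 bp and 3296 bp away. Ing3, a subunit of a histone acetyltransferase complex, had summits at -73 and -71, ranked 1520 and 2313. Its nearest day 0 summit lay only 513 bp away and ranked 2322 there. A strong day 0 peak thus stood beside the Ing3 region.

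Among the 60 promoters, 29 had a day 0 summit within 1 kb of the gained summits, 12 had one at 1 to 5 kb and 19 had none within 5 kb. The 19 included the start sites of Lhx3 and Lhx6, LIM homeobox transcription factors, with day 0 summits 29202 bp and 31188 bp away. Lhx3, Lhx6, Tfcp2l1, Zc3h12c and the genes printed above, apart from Tie1, Cxcl2 and Ing3, were picked after their values were seen.

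Motif letters in these promoters were searched on both strands for 15 motifs, the 7 above and CTCF, EBF, NFI, p53 family, C/EBP (TTGCNNAA), STAT (TTCNNNGAA), E-box (CANNTG) and HIF (ACGTG). Matches of different motifs can overlap. Promoter windows of neighbouring genes can overlap too, so a site can count for more than 1 gene. The windows of Timm9 and 2700049A03Rik, both with GATA letters, overlap, as do those of Brd2 and H2-DMa, both with ETS letters. The intervals treat the 60 promoters as independent, which these are not. The GATA letters were in 13.3% of the 60 gained promoters (5.94 to 24.6), against 3.84% of 7343 promoters of kept regions and 9.02% of all 16457. The NF-kB letters were in 3.33% (0.406 to 11.5), against 0.381% and 0.352%, but that share is 2 genes. The KLF/SP letters, typical of GC-rich promoters, were in 53.3% (40.0 to 66.3) of gained promoters, against 69.4% of kept and 43.6% of all. The ETS letters were in 6.67% (1.85 to 16.2), against 16.5% and 9.38%. AP-1 letters were in 6.67% of gained promoters, against 3.80% of kept and 6.28% of all. For GATA and KLF/SP the counting intervals of gained and kept promoters did not overlap, while the share over all promoters lay inside the gained interval. GC content moved with this: its median was 57.0% in gained promoters, against 62.4% in kept promoters and 55.6% in all, and its part in the motif shares was not tested. The TEAD letters were in 10% of gained promoters, against 9.49% and 11.3%, and RUNX letters in 11.7%, against 9.38% and 12.2%. Shares for C/EBP were 8.33%, against 6.41% and 9.25%, for STAT 6.67%, against 5.52% and 6.79%, and for CTCF 5.0%, against 7.57% and 5.97%. E-box letters were in 53.3%, against 53.7% and 62.4%, and HIF letters in 25%, against 23.2% and 17.8%. EBF letters were in 1 of 60 gained promoters, and NFI and p53 family letters were in 0 of 60, which allows a share of up to 5.96%. A match is a string of letters and not a bound site.

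The libraries held 143818952 read pairs at day 7 immobilized, 173029378 at day 7 non-immobilized and 176119937 at day 0. Duplicates made up 43.4%, 42% and 60.2% in that order, which left an estimated 75269683, 90136518 and 63640194 aligned pairs, so the day 0 library was the least deep. The deposited lists held 67404, 47912 and 51722 summits, and the 30000 kept summits reached down to a score of 11.8 in the immobilized and 7.61 in the non-immobilized list. Absence at day 0 means that no summit was in that list, not that chromatin was closed. The part of depth in the number of gained regions was not tested. In the 30000 best summits of each list, each library had a summit nearest to 19 of 23 mesenchymal progenitor markers. Lepr, Ly6a and Tcf21 had none in any library, Dpp4 had none at day 7 non-immobilized, and Pi16 had 1 there and none elsewhere. Markers of other cell types were also present: 20, 26 and 16 of 26 endothelial markers and 19, 13 and 10 of 22 keratinocyte markers had a summit at day 7 immobilized, day 7 non-immobilized and day 0. Myeloid markers with a summit numbered 14, 12 and 11 of 24, lymphoid markers 9, 7 and 8 of 23, pericyte and smooth muscle markers 14, 13 and 15 of 16, skeletal muscle markers 9, 10 and 14 of 18 and Schwann markers 8, 8 and 8 of 12. In bulk chromatin, more cells of a type and more open chromatin per cell cannot be told apart.

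The rule's limits cut through a continuum. The gained region nearest to a day 0 summit, assigned to Tgfbr3, lay 503 bp from it, and that of Spats2 lay 504 bp from it. The kept regions just outside the limit, of Ssr3, Cachd1 and Fbxl14, lay 500, 498 and 497 bp from one. At the rank limit, the worse of the region's 2 ranks was 30000 for Sema6a, 29964 for Sntb2 and 29945 for Nek2 among the gained regions. Regions of Dusp5, Mrps27 and Prnd, at 30004, 30023 and 30027, just missed it.

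Gained regions were mostly weak among the kept summits. Their ranks in the immobilized list ran from 1520 to 30000 with a median of 21720, against a median of 11402 in kept regions. In the non-immobilized list they ran from 1973 to 29964 with a median of 20366, against 11475. The share of strong shared regions that were gained was 0.343% where the worse rank was 7500 or better, then 1.75%, 7.16% and 15.1% in the following classes of 7500 ranks each, so 801 of the 1325 fell in the last of these rank classes. Scores had a median of 16.7 (86.3 to 11.8) in the immobilized list and 12.3 (65.8 to 7.63) in the non-immobilized list, each being the authors' own value for a peak.

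The 2 day 7 summits of a region lay close together. The rule in part imposes this, because summits were merged only where their windows of 250 bp each side met. Kept regions were under the same limit. In 1311 of 1325 regions each day 7 list had a single kept summit. The 2 summits lay a median of 26 bp apart (at most 579 bp) and within 50 bp in 68.5% of regions (66.0 to 71.0), against 18 bp and 75.1% (74.5 to 75.6) in kept regions. Regions were 501 to 1080 bp wide, with a median of 527 bp. The rank was better in the immobilized list for 583 gained regions, or 44.0% (41.3 to 46.7), against 49.9% (49.3 to 50.6) of kept regions. The rule used these ranks, so the shares are a description. The share was 36.4% (30.6 to 42.6) within 1 kb of a day 0 summit, 41.6% (36.4 to 47.0) at 1 to 5 kb, 50.1% (45.5 to 54.7) at 5 to 20 kb and 43.8% (37.4 to 50.3) beyond, so regions over 5 kb away had intervals that held the share of kept regions. Ranks differed by more than 10000 in favour of the immobilized list in 68 regions and in favour of the non-immobilized list in 126.

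**Figure D1:**
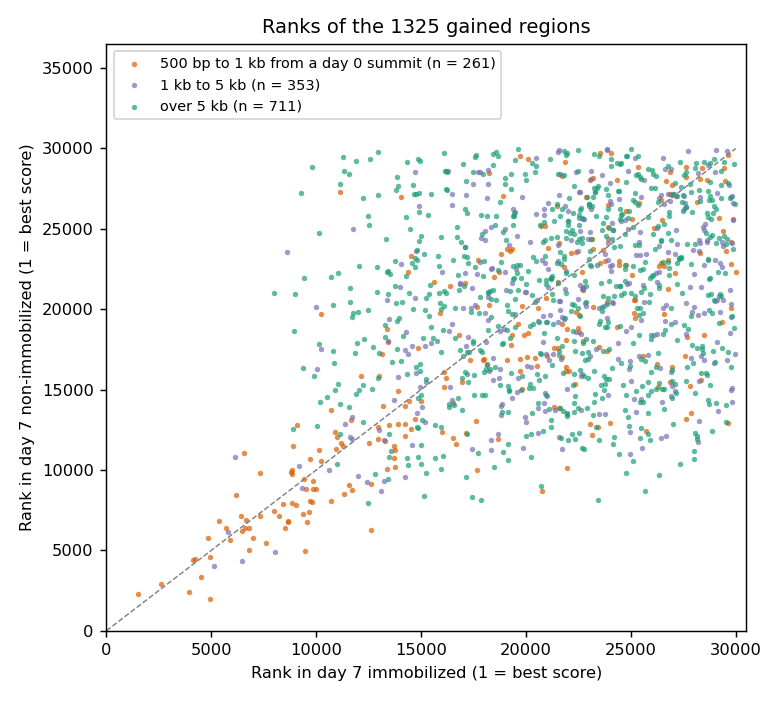
Each point is 1 of the 1325 gained regions, with its rank among the 30000 kept summits of the day 7 immobilized list (x axis) and of the day 7 non-immobilized list (y axis), where 1 is the best score; colours give the distance to the nearest day 0 summit and the dashed line marks equal ranks. Most of the points near the origin belong to the 261 regions with a day 0 summit within 1 kb, and the 711 regions over 5 kb away fill the weaker ranks.

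Gained regions lay away from genes' ends more often than kept ones. The gene table gives both ends of each protein-coding gene, and 157 gained regions, or 11.8% (10.2 to 13.7), lay within 1 kb of either, against 43.7% (43.1 to 44.4) of kept regions. Read the other way, 8.49% of the strong shared regions over 1 kb from an end were gained, and 1.58% of those within 1 kb. Since kept regions ranked better and well-ranked regions lie near gene starts, the share was also taken by rank. In the same rank classes, from best to worst, it was 65.2%, 26.6%, 8.93% and 9.74% in gained regions, against 80.2%, 44.5%, 20.3% and 14.9% in kept regions. The share was thus lower in every rank class, with intervals that overlapped in the best class, which held 23 gained regions. The classes did not match ranks fully. In the immobilized list gained regions had median ranks of 5721, 11558, 18411 and 24718. Those of kept regions were better, at 3357, 9993.5, 16853.5 and 23880. In the non-immobilized list kept regions had the better median in every class but the last, with 23940.5 against 23765 there. The part of the remaining rank difference was not tested.

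**Figure D2:**
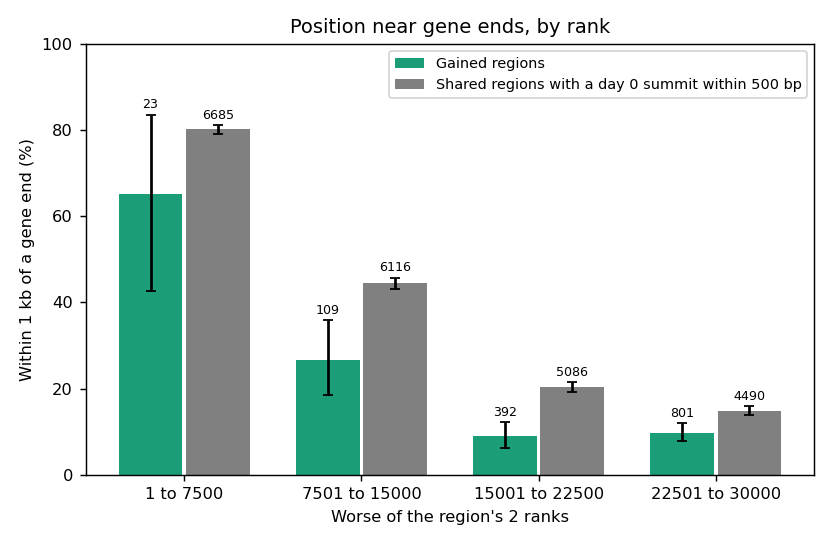
Bars give the percentage of regions with a protein-coding gene's end within 1 kb (y axis), in 4 classes of the worse of a region's 2 day 7 ranks (x axis, 1 is best); green bars are gained regions, grey bars kept regions, error bars are exact 95% binomial intervals over regions and the numbers above are regions. Gained regions had the lower share in each class, 65.2% against 80.2% in the best and 9.74% against 14.9% in the last.

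Gained regions fell inside a gene in 54.7% of cases (52.0 to 57.4), against 54.8% of kept regions, so the shares inside genes were much the same. No gene end lay within 50 kb of 281 gained regions, or 21.2% (19 to 23.5), against 13.0% (12.6 to 13.4) of kept regions. Of these 281, 130 were inside a long gene and 151 between genes. On the chromosomes with RefSeq start sites, 177 of 1277 gained regions lay within 1 kb of a start, 86 upstream and 91 downstream of it. A kept region lay within 20 kb of 807 gained regions, or 60.9% (58.2 to 63.5), and within 5 kb of 312.

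The distance to the nearest day 0 summit, limited by the rule only to more than 500 bp, ran from 503 bp to 855000 bp with a median of 5730 bp. It was at most 1 kb in 261 regions, or 19.7% (17.6 to 21.9), and over 5 kb in 711, or 53.7% (50.9 to 56.4). The 261 regions closest to a day 0 summit lay near gene ends more often than the rest. Of them 36.4% (30.6 to 42.6) lay within 1 kb of a gene end, against 4.82% (2.83 to 7.60) at 1 to 5 kb, 4.67% (2.95 to 6.99) at 5 to 20 kb and 9.58% (6.17 to 14.0) over 20 kb. They also held 20 of the 23 regions in the best rank class, and their nearest day 0 summits had a median score of 22.9, against 11.4, 10.5 and 11.5 in the farther classes. Most of the 261 were nonetheless neither near a gene end nor in the best rank class, and the median of their worse rank was 21433.

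Regions of a single day 7 library were set beside these: they held a kept summit of that list and had no summit of the other whole day 7 list or of the whole day 0 list within 500 bp. There were 1850 such regions of the immobilized library, with a median distance of 10348.5 bp, and 7.73% of them (6.55 to 9.04) lay within 1 kb of a day 0 summit. The 724 of the non-immobilized library had a median distance of 1622 bp, and 39.4% (35.8 to 43.0) lay within 1 kb. The gained regions of both libraries, with 19.7%, stood between these. Absence was judged against whole lists of 47912 summits for the immobilized and 67404 for the non-immobilized class, and the part of list length in the contrast was not tested.

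**Figure D3:**
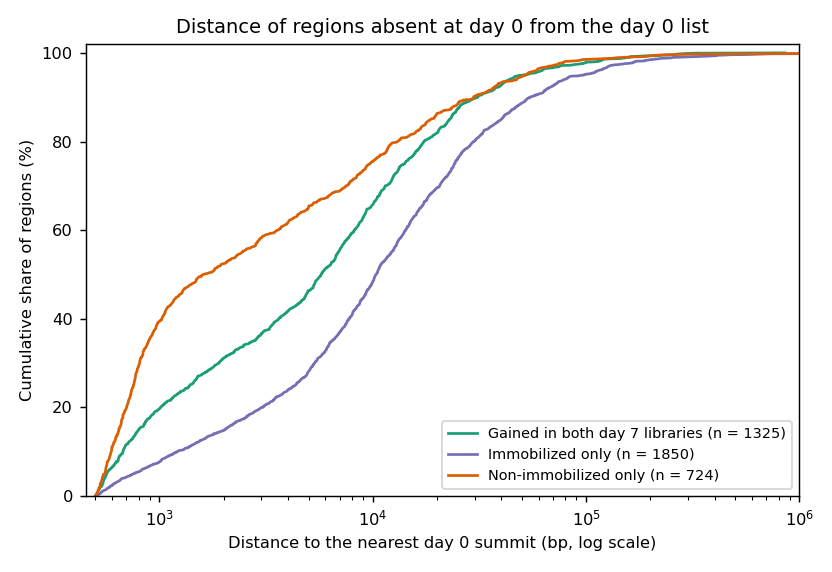
Lines give the cumulative percentage of regions (y axis) within a distance of the nearest day 0 summit (x axis, bp, log scale) for the 1325 regions gained in both day 7 libraries, the 1850 of the immobilized library alone and the 724 of the non-immobilized library alone. The line for both libraries runs between the others, with medians of 5730, 10348.5 and 1622 bp.

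The best ranked gained regions all had a strong day 0 summit close by. Behind Ing3 came E4f1, a regulator of cell growth, with ranks of 2623 in the immobilized and 2891 in the non-immobilized list, and Pnrc1, a nuclear receptor coactivator, with 3919 and 2399. Fut8, the enzyme that adds core fucose to glycans, had 4114 and 4383, and Bptf, a subunit of a chromatin remodelling complex, had 4208 and 4472. The day 0 summits next to these regions were 524, 683, 644 and 585 bp away and ranked 3106, 3060, 3537 and 5273 at day 0. All 15 of the best ranked regions had a day 0 summit 511 to 1320 bp away; the others were 1520401A03Rik, Ndrg2, Acbd5, Ywhaz, Tcaf1, Carhsp1, Fmc1, A930033H14Rik, Hnrnph1 and Gtf2i.

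Of the 15 best ranked regions over 5 kb from day 0 summits, 8 had no gene end within 50 kb, though some of these lay inside a long gene. The first, chr16:55555131-55555634, ranked 10973 in the immobilized and 10345 in the non-immobilized list, 15932 bp from a day 0 summit and 233359 bp from the nearest gene end. Tgfa, a ligand of the EGF receptor, was also among the 15, with a region in the gene, chr6:86219376-86219900, ranked 13559 and 11164, with the nearest day 0 summit 24533 bp away. Its other gained region, chr6:86318784-86319306, ranked 10837 and 16663 and lay 45532 bp from day 0 summits. Kif26a, a kinesin family member, had a region ranked 11558 and 13927 at 9308 bp. The first of these was picked after its values were seen.

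The 1044 gained regions within 50 kb of a gene end fell to 942 genes, or 7.7% of the 12236 genes with a strong shared region. A single gained region was found at 848 genes, 2 at 86, 3 at 8 and 4 or more at 0. The 8 genes with 3 were Bach1, Tspan9, Ets1, Cmip, Slco2a1, Flt1, Trib2 and Tcim. Bach1, a transcription repressor released by heme, had 3 of 6 strong shared regions gained, and the best of them, chr16:87699822-87700369, ranked 12006 and 9628 at 1162 bp from a day 0 summit. Slco2a1, a prostaglandin transporter, had 3 of 7, Tspan9, a tetraspanin, 3 of 6, and Trib2, a pseudokinase, 3 of 5. Of genes with 2, Mmp14, which encodes a membrane-bound collagenase, had a region at chr14:54443102-54443619 ranked 9515 and 8833, but a day 0 summit was 677 bp away. Dusp1, a phosphatase that inactivates MAP kinases and is induced by stress, had 2 of 8 and Fstl1, a secreted glycoprotein, 2 of 7. Within 12.5 kb of each other lay 53 pairs and 1 triple of gained regions. The triple spanned chr11:8569685-8589850 inside Tns3, a tensin of focal adhesions, with ranks of 21506, 26172 and 29521 in the immobilized and 28435, 15020 and 24030 in the non-immobilized list. The nearest day 0 summit lay 12045 bp from it.

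Of 27 gene lists, the endothelial list had the highest share of gained regions. At its genes 11 of 47 strong shared regions were gained, or 23.4% (12.3 to 38), against 5.59% of all strong shared regions and 8.49% of those over 1 kb from a gene end. Its 9 of 38 distal regions gave 23.7%. The 11 regions fell to 7 of the 26 genes, with 3 each at Flt1 and Ets1 and 1 each at Kdr, Tie1, Tek, Pecam1 and Cdh5, and 9 of them lay over 5 kb from day 0 summits. The interval treats regions as independent, which regions of 1 gene are not.

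Flt1, a receptor of vascular endothelial growth factor, had 3 of its 4 strong shared regions gained. The one 129 bp into the gene, chr5:147725502-147726132, ranked 21930 in the immobilized and 10152 in the non-immobilized list, with a weak day 0 summit (rank 31951) 543 bp away. The region inside the gene, chr5:147589755-147590346, ranked 24953 and 16482, at 16960 bp, and the one upstream, chr5:147747884-147748413, ranked 23191 and 26993, at 10155 bp. Ets1, a transcription factor of endothelial and lymphoid cells, had 3 of 10, all inside the gene, at chr9:32709658-32710190, chr9:32720471-32721060 and chr9:32749700-32750246. They ranked 18898, 21546 and 23676 in the immobilized and 17884, 21685 and 17409 in the non-immobilized list, with day 0 summits 6259, 659 and 19137 bp away.

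The other endothelial regions were single. Kdr, the main receptor of vascular endothelial growth factor, had chr5:75922589-75923093, ranked 22279 and 18028, and Tie1 had its promoter, ranked 23421 and 8113. Cdh5, the junction protein VE-cadherin, had chr8:104121500-104122243, ranked 24410 and 10986, and Tek, the angiopoietin receptor, had chr4:94725748-94726281, ranked 28901 and 26005. Pecam1, the surface protein CD31, had chr11:106648352-106648879, ranked 12470 and 25811, so it leaned to the immobilized list. Cdh5, Pecam1 and Tek were named after their values were seen. The rank was better in the immobilized list in 3 of the 11 regions and better in the non-immobilized list in the others. Over all gained regions it was better in the immobilized list in 44.0%. The 11 regions are few and several share a gene, so the count does not set this list apart. Over all 26 markers the 30000 best summits of each list held 55 at day 7 immobilized, 89 at day 7 non-immobilized and 38 at day 0. Emcn, Fli1, Robo4, Sox17 and Sox18, named after their values were seen, had none at day 7 immobilized and none at day 0. Other markers of the list did not follow this. In the same order of libraries Erg had 4, 4 and 4 summits, Clec14a 1, 1 and 1, Egfl7 2, 2 and 3 and Lmo2 3, 2 and 3. The part of the number of endothelial cells in the libraries was not tested. With the 20000 best summits of each day 7 list the share was 4.35%, that is 1 of 23 regions, so it rested on summits ranked between 20000 and 30000 in at least 1 list.

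**Figure D4:**
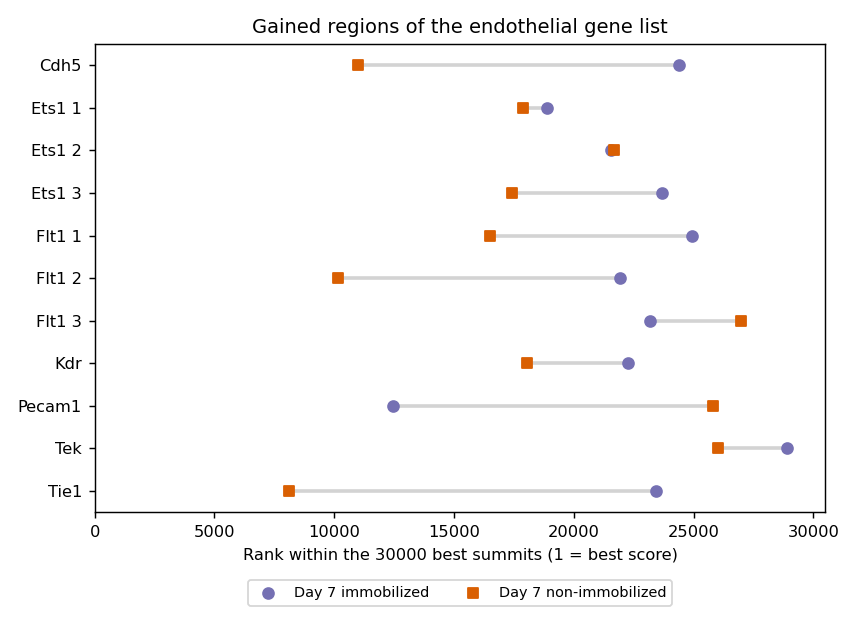
Rows are the 11 gained regions of the endothelial list, numbered along the chromosome where a gene has 3; circles give the rank in the day 7 immobilized list and squares that in the day 7 non-immobilized list (x axis, 1 is best, 30000 the last kept). The square lies at the better rank in 8 rows, most clearly for Tie1 (8113, against 23421), and the circle in 3, most clearly for Pecam1 (12470, against 25811). Over all gained regions the immobilized rank was the better one in 44.0%.

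Growth factor, adhesion and hypoxia genes had shares of 10% or more, as did keratinocyte markers with 11.8%, which is 2 of 17 regions. The adhesion interval began just above the 5.59% of all strong shared regions, and the growth factor and hypoxia intervals held it. At regions over 1 kb from a gene end their shares were 15% (growth factor), 14.3% (adhesion) and 13.3% (hypoxia), against 8.49%. Housekeeping genes had 15.4% there, which is 2 of 13 regions, and keratinocyte markers 12.5%, which is 1 of 8. All lists together had 88 of 877 such regions gained, or 10.03%. Shares above 8.49% were thus not particular to growth factor, adhesion and hypoxia genes. Focal adhesion and actin genes had 12 of 112 regions gained, or 10.7% (5.66 to 18), over 11 genes. Myh9, the heavy chain of non-muscle myosin, had 2 of 8, Pxn, the adaptor paxillin, 1 of 9, Tns1, a tensin, 1 of 8, and Cd44, the hyaluronan receptor, 1 of 5. The Cd44 region, chr2:102873164-102873673, ranked 17113 and 16113 at 8794 bp from day 0 summits. FGF, PDGF and EGF signalling genes had 7 of 63, or 11.1% (4.59 to 21.6), with 2 of 3 at Tgfa and 1 each at Met, Errfi1 and Pdgfa among others. The region of Errfi1, a feedback inhibitor of the EGF receptor, ranked 11010 and 12030 at 984 bp, and that of Met, the receptor of hepatocyte growth factor, 17671 and 22192 at 4968 bp. Hypoxia and metabolism genes had 8 of 80, or 10% (4.42 to 18.8), with 2 of 4 at Slc2a1, the glucose transporter GLUT1, and 1 of 2 at Hif1a, the oxygen-sensitive transcription factor. The Hif1a region, chr12:73880337-73880846, ranked 18767 and 15276 at 7899 bp.

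YAP/TAZ genes had 6 of 67 gained, or 8.96%, with 2 of 7 at Wwtr1, which encodes TAZ. AP-1 and immediate early genes had 7 of 82, or 8.54%, and 3 of these were at Bach1. The AP-1 subunit gene Fosb and the small Maf gene Mafk had 1 each. Collagen genes had 6 of 74, or 8.11%, with 2 each at Col15a1 and Col18a1, which encode basement membrane collagens. Inflammatory genes had 7 of 95, or 7.37%, with 2 of 6 at Csf1, the macrophage growth factor, and 1 each at Cxcl2, Osmr and Stat3. The intervals of these shares all held the 5.59% of all strong shared regions. At distal regions alone the shares were 10.9%, 12.3%, 9.84% and 8.70% in the order given, against 8.49%.

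At genes of bone, cartilage, tendon and fat the shares were not distinguishable from the 5.59% of all strong shared regions at these counts. Osteogenic genes had 1 of 33, or 3.03% (0.0767 to 15.8), at Sp7, the osteoblast transcription factor osterix, ranked 20102 and 18538 with a day 0 summit 522 bp away. Chondrogenic genes had 2 of 26, or 7.69% (0.946 to 25.1), at Sox9, the cartilage regulator, and Pthlh, which delays chondrocyte maturation. The Sox9 region, chr11:112811433-112811981, ranked 26804 and 25817, near the limit, and lay 6541 bp from day 0 summits. Tenogenic genes had 0 of 29, which allows up to 11.9%, and adipogenic genes 2 of 48, or 4.17% (0.509 to 14.3), at Lep and Zfp423. Of 16 genes of interest to bone formation and fibrosis, Sox9 had a gained region, and Runx2, Pparg, Scx, Pdgfra, Prrx1, Ddr2, Yap1, Ccn1, Ccn2, Postn, Col1a1, Tnc, Acta2, Bmp2 and Il6 had none among 1 to 5 strong shared regions each. Of all 12236 genes with a strong shared region, 7.7% held a gained one, so 1 of 16 does not set these genes apart. BMP and TGF-beta genes had 6 of 110, or 5.45%. The Smad5 promoter ranked 9705 and 8062 with a day 0 summit 712 bp away, and that of Tgfb2 ranked 24314 and 18878, at 790 bp.

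The remaining lists had small counts. Proteases had 4 of 51, mesenchymal progenitor genes 3 of 41, Wnt genes 4 of 57, activated fibroblast genes 2 of 29, limb position genes 2 of 33, cell cycle genes 3 of 52, housekeeping genes 2 of 35 and stress genes 1 of 41. Among markers of other cell types, keratinocyte genes had 2 of 17 (Pkp1 and Epcam), myeloid 1 of 14, Schwann 1 of 18, pericyte and smooth muscle 1 of 24, skeletal muscle 1 of 24 and lymphoid 0 of 9. The keratinocyte regions both ranked better in the immobilized list, Pkp1, a desmosome protein, with 17085 against 26259 in the non-immobilized list. All lists together had 101 of 1288, or 7.84% (6.43 to 9.45).

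**Figure D5:**
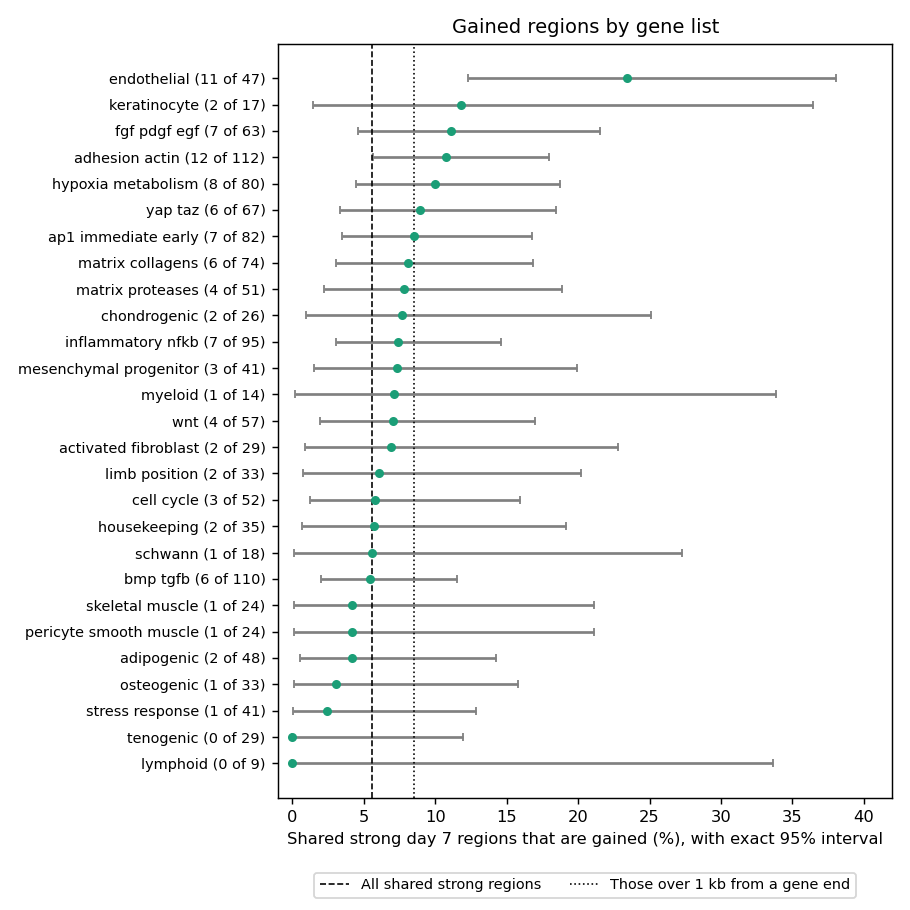
Points give the percentage of strong shared day 7 regions that are gained at the genes of each list (x axis), with exact 95% binomial intervals over regions and the counts beside the list's name; the dashed line is the 5.59% of all strong shared regions and the dotted line the 8.49% of those over 1 kb from a gene end. The endothelial list, with 11 of 47, is the only one of the 27 whose interval lies above both lines. Neither line is matched to the ranks of a list's regions.

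Some gained regions ranked far better in 1 of the day 7 lists. On the immobilized side, Aplp2, a relative of the amyloid precursor protein, ranked 9819 against 28835 in the non-immobilized list, Ifnar2, a subunit of the interferon receptor, 9265 against 27214, and Slc22a15, an organic cation transporter, 11881 against 29237. On the non-immobilized side, Nt5e, which encodes the mesenchymal surface enzyme CD73, ranked 28025 in the immobilized list and 10673 in the non-immobilized list. Wwtr1 ranked 25682 and 8711, Lrrc8c, a subunit of volume-regulated anion channels, 27992 and 11183, and Rfx8, an RFX family gene, 29631 and 12910. The Nt5e region lay 31083 bp from day 0 summits and the Wwtr1 region 8286 bp. The Aplp2 region lay 5910 bp from a day 0 summit that ranked 376 there.

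Summits of gained regions lay within 2 kb of 7 annotated miRNA hairpins, taken from RefSeq. Distances here run from the summit to the hairpin. How many hairpins lay near any strong shared region is not given here, so the count has no background. Mir199a-2, whose products are abundant in mesenchymal cells, was 1881 bp from the summit of a region ranked 20585 and 20077, with a day 0 summit 944 bp away. Mir10a, in the Hoxb cluster, was 1338 bp from the summit of a region ranked 21884 and 24887. Mir6387 lay inside a region of Trib2 ranked 25671 and 16809. Their mature sequences show which products these loci make, and capitals mark the seed, bases 2 to 8.
miR-199a-5p: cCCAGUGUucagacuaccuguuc
miR-199a-3p: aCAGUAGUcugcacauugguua
miR-10a-5p: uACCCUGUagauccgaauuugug
miR-10a-3p: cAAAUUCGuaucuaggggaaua
miR-6387: uGGAAUGGcuucccuuguguau

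The printed seeds all differ. The other hairpins were Mir671 (662 bp), Mir7043 (1573 bp), Mir7077 (1664 bp) and Mir12181 (270 bp). Expression of the miRNAs was not measured.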

How the data were processed

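ATAC-seq peak summits of 3 mouse libraries were analysed, 1 per group, grouped by the sample labels. The Omni-ATAC method was used, per the labels' protocols. MACS2 2.1.2, Bowtie2 2.3.4.1, bedtools 2.28.0 and SAMtools 1.2 are in the submitters' processing notes, beside edgeR 3.26.5, Picard, cutadapt, Trim Galore, FastQC and the build mm10. Not given in the sources used here was information on a transposase shift, read filters and peak cutoffs.

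The deposited score of each summit was read as a −log10 p or q value from its layout; which of these was not stated. It is the authors' own value per peak and served to rank summits within a list. Peaks were called per library, as the deposited lists show. The run statistics hold, per the file headers of the deposited table, values of 3 kinds: reads are counts, duplication is a fraction and alignment a percent. Aligned pairs without duplicates are an upper estimate.

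Regions were built as the report states; lists and deposited coordinates were used on the autosomes, with positions counted from 1. A region went to the protein-coding gene whose end lay nearest, within 50 kb of its best ranked summit, from a RefSeq table of 20665 genes (GRCm38.p6). Promoter sequence was at hand for 16457 of them, none on chromosome 18; motif searches at other regions were not run. Intervals are exact (Clopper-Pearson) 95% binomial intervals and cover counting error only.

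Members and lists were chosen with earlier results of these data known. Genes named were the 25 with most gained regions, those of the 15 best ranked, up to 4 per list, a fixed set of 16 and the 5 largest rank differences per direction. The steps were tested on simulated data, where 5000 of 5000 regions and 624 of 624 gene assignments were recovered. Tools were scipy 1.17.1, pandas 2.3.3, numpy 2.4.6, matplotlib 3.10.9 and Python 3.11.15.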

Additional observations from a re-analysis of the deposited data

How the results depend on the processing

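With 1 library per group there is no replicate spread, and the number and kind of gained regions depend on where the lists are limited. No paired analysis was possible because each group has 1 library. The number of gained regions was 320 with the 20000 best summits of each day 7 list, 3125 with 40000, 7530 with whole lists, 3245 when day 0 was also limited to its 30000 best, and 711 when 5000 bp to day 0 was required, a distance chosen after seeing the data. Their share of strong shared regions was 1.93%, 10.2%, 18.6%, 13.7% and 3.0% in that order, 5.05% with windows of 500 bp each side, and 7.47%, 4.49% and 3.85% with day 0 limits of 250, 1000 and 2000 bp. The share within 1 kb of a gene end was 19.7% (20000 best), 9.18% (whole lists), 13.8% (30000 best at day 0), 6.33% (5000 bp), 9.16% (windows of 500 bp), and 19.4%, 5.83% and 5.91% with limits of 250, 1000 and 2000 bp. With near taken as 500 or 2000 bp it was 6.79% or 17.8%. The share inside a gene was 57.7% at 250 bp and 51.6% at 5000 bp. The share over 5 kb from day 0 summits was 41.6% (20000 best), 58.1% (40000), 60.5% (whole), 71.8% (30000 best at day 0), 60.9% (windows of 500 bp), and 40.2%, 66.8%, 77.9% and, by construction, 100% with limits of 250, 1000, 2000 and 5000 bp. The share better ranked in the immobilized list was 41.2% (20000 best), 46.8% (2000 bp) and 48.0% (5000 bp); whole lists of unequal length were not used for it. Summits within 50 bp were 75.3% (20000 best), 64.8% (40000), 55.1% (whole), 71.2% and 65.9% (windows of 100 and 500 bp), 64.6% (2000 bp) and 63.9% (5000 bp). Genes with 4 or more gained regions numbered 14 (40000), 141 (whole), 21 (30000 best at day 0), 2 (250 bp), 2 (genes within 100 kb), 1 (gene that holds the summit) and 1 (nearest transcription start). Gained regions at listed genes numbered 20 (20000 best), 228 (40000), 466 (whole), 222 (30000 best at day 0), 45 (5000 bp), 41 (genes within 10 kb) and 62 (gene that holds the summit). The endothelial share was 4.35% (20000 best), 48.2% (whole) and 40.4% (30000 best at day 0), and 19.1% to 31.3% under the other alternatives. Of 351 alternative values of list shares, 269 stayed within the counting interval, which is wide for lists with few regions. Of 98 alternative values of the other results, 39 were judged the same, by that interval or, for plain counts, by a fixed ratio. Apart from these constructions the causes were not tested. The AP-1 share at all gained regions, which needs genome sequence, was not run.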

Other observations

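Gained regions were found on all 19 autosomes. Their share of the strong shared regions ran from 4.36% on chromosome 2 to 7.16% on chromosome 12. In the opposite direction, 1236 of 29811 regions from the 30000 best day 0 summits, or 4.15% (3.92 to 4.38), had no summit within 500 bp in either whole day 7 list. With each day 7 list taken on its own, whether or not the other list shared the region, 4081 of 29869 regions from the 30000 best immobilized summits (13.7%) and 3998 of 29658 from the 30000 best non-immobilized summits (13.5%) had no day 0 summit within 500 bp.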
